A study of Mus musculus with 8 samples.

Results

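Cell adhesion in the lens rests on cadherins, on the catenins that hold cadherins to the cytoskeleton, and on contact signalling between Eph receptors and ephrins. The 8 genes described here are *Cdh1* and *Cdh2* (E-cadherin and N-cadherin), *Ctnnb1*, *Ctnna1*, *Ctnna2* and *Ctnnd1* (β-catenin, αE-catenin, αN-catenin and p120-catenin), the receptor gene *Epha2* and the ephrin gene *Efna5*. They were taken as a list of names from the 26180 genes with curated RefSeq transcripts in GRCm38. No measured value entered the rule, though earlier results of these data were known when the list was made. For each gene, all open chromatin peaks that shared at least 1 bp with the gene body or the 50 kb on either side were collected. When the 4 peak lists were merged at a distance of 10 bp, these windows held 467 of 185368 merged regions.

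Chromatin accessibility had been measured by ATAC-seq, in which the transposase Tn5 cuts open DNA and tags it for sequencing. The tissues were lens epithelium and lens fibers, micro-dissected from CD1 mice at embryonic day E14.5 and at P0.5, just after birth (called embryonic and newborn from here on), with 2 libraries in each of the 4 groups (8 in all) and several lenses in each library. No group is labelled with a mutation or a treatment. The paper reports fewer cells per library at E14.5 than at P0.5, and at P0.5 fewer for fibers than for epithelium. Cell number thus changed with stage and, at P0.5, with tissue, and its part in the values below was not tested. The 2 libraries of a group were pooled before peaks were called, so each value below comes from 1 pooled list, has no error between replicates and was not tested. Intervals are 95% Wilson intervals, which cover counting error only.

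A cadherin binds the same cadherin on the neighbouring cell. β-catenin and p120-catenin attach to its cytoplasmic tail, and an α-catenin links β-catenin to actin. β-catenin also acts in the nucleus as the co-activator of Wnt signalling. E-cadherin is known as the cadherin of the lens epithelium, whereas N-cadherin is found in epithelium and fibers. Eph receptors are tyrosine kinases that bind ephrins held in the membrane of the adjacent cell. EphA2 and ephrin-A5 are known for their part in the ordered packing of lens cells, and variants of *EPHA2* cause cataract in humans.

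Every one of the 8 genes had a peak within 2 kb of an annotated start site (here called its promoter) in all 4 lists. With a q value under 0.001 this was so for 6 of the 8 in newborn fibers, without *Cdh1* and *Ctnnd1*, and for all 8 in the other lists. At the threshold of the lists the same held for 60.6% of the 21000 protein-coding genes, and the shares with a peak there in a given list were 70.3% in embryonic epithelium, 71.2% in embryonic fibers, 67.0% in newborn epithelium and 64.6% in newborn fibers. Beyond the promoters the lists differed. The windows held 270 of the 100003 peaks of embryonic epithelium and 384 of the 123743 peaks of embryonic fibers. At P0.5 they held 117 of 58592 peaks in epithelium and 91 of 62995 in fibers. The list of newborn fibers, with the fewest window peaks, also held the weakest: 57.1% of them had a q value under 0.001, against 83.8% in newborn epithelium, 80.5% in embryonic fibers and 89.3% in embryonic epithelium. Over all peaks the corresponding shares were 48.9%, 86.7%, 80.5% and 87.9%. The part of this in the counts was not tested.

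In embryonic fibers, the gene bodies of 7 of the 8 genes were covered by peaks to a larger share than in embryonic epithelium, as were those of 65.9% of 19556 protein-coding genes of at least 1 kb. *Cdh1* was the exception. At P0.5, fibers had the larger share for 2 of the 8 genes, *Epha2* and *Ctnna2*, against 36.7% of all genes. From E14.5 to P0.5, coverage was lower for all 8 genes in both tissues. For *Ctnnb1* in epithelium the difference of -0.675 points was 0 without the first 2 kb of the gene. Coverage was higher at P0.5 for 6.84% of all genes in epithelium and for 5.67% in fibers. The median share of the gene body under a peak was 5.79% over the 8 genes in embryonic epithelium, 9.54% in embryonic fibers, 2.80% in newborn epithelium and 0.837% in newborn fibers. The corresponding medians of all genes were 2.55%, 4.06%, 1.39% and 1.29% in the same order. Thus the median of the 8 genes lay above that of all genes in 3 lists and below it in newborn fibers.

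**Figure D1:**
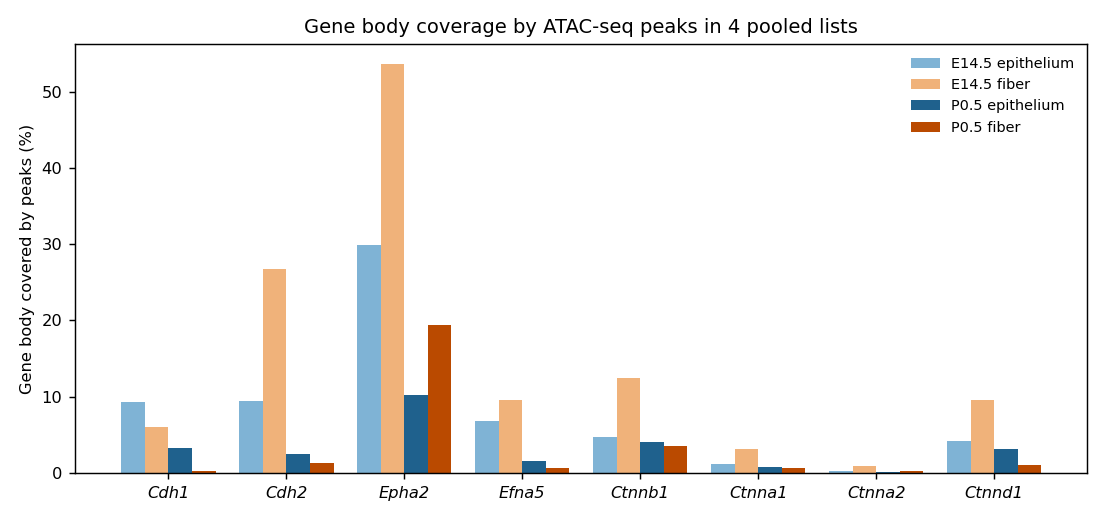
Share of each gene body covered by peaks (%, vertical axis from 0) for the 8 genes, with 1 bar for each pooled list (E14.5 and P0.5, epithelium and fiber) and no error bars, since replicates were pooled. Epha2 stands at 53.6% and Cdh2 at 26.8% in E14.5 fibers, whereas Cdh1 is highest in E14.5 epithelium at 9.28%.

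*Cdh1* encodes E-cadherin and lies on chr8:106603350-106670247, on the plus strand. Its gene body was covered to 9.28% in embryonic epithelium, 5.99% in embryonic fibers, 3.27% in newborn epithelium and 0.277% in newborn fibers, so that epithelium exceeded fibers at both stages. The number of peaks in the gene body was 20, 17, 8 and 2 in the same order. Of the 35 merged regions called at E14.5 in its window, 10 were called in epithelium and not in fibers (28.6%, interval 16.3 to 45.1%), and 5 in fibers and not in epithelium. Over all merged regions the shares at E14.5 were 19.7% for epithelium alone and 40.1% for fibers alone. At P0.5, 9 of 15 regions were called in epithelium alone and 1 in fibers alone, where all regions gave 35.2% and 39.6%.

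The strongest open site of *Cdh1* in epithelium was not its promoter but a pair of intronic regions. The place of a peak is its rank by summit fold enrichment over local background, as a percent of its own list, so a smaller percent is a stronger peak. The first intronic region, with its summit 22.9 kb from the start site, had its peak at 9.01% of the list in embryonic epithelium, 14.6% in newborn epithelium and 24.3% in embryonic fibers. The second, at 25.2 kb, had 9.30%, 16.5% and 27.2% in these lists. Neither was called in newborn fibers. The promoter peak of *Cdh1* stood at 22.5% in embryonic epithelium, 19.5% in embryonic fibers, 39.5% in newborn epithelium and 48.9% in newborn fibers, where it was 126 bp wide. In newborn fibers, another intronic region at 32.1 kb, at 34.7%, stood above it. The 22.9 kb region is shown because it was the highest-ranked of the gene in both epithelium lists, and a small region at -16.1 kb from the start site because it was called in both epithelium lists and in neither fiber list. Both are given from GRCm38 in the direction of the gene, and capitals mark matches to Tead (GGAATG) or Maf (TGCTGA) consensus letters on either strand (CATTCC is GGAATG on the other strand).
Cdh1 intron, 22.9 kb, chr8:106626167-106626367: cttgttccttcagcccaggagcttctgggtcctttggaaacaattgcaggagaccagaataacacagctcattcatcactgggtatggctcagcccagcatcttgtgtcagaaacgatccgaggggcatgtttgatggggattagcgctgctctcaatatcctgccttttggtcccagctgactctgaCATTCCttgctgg
Cdh1 upstream, -16.1 kb, chr8:106587147-106587278: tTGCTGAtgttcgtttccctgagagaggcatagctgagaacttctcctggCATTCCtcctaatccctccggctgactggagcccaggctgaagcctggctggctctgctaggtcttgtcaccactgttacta

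The upstream region also lay within 2 kb of the start of another gene. Its peak stood at 55.5% of the list in embryonic epithelium and 66.3% in newborn epithelium, in the weaker part of both. Above these sites in 3 of the 4 lists stood a peak at the promoter of the neighbouring gene *Tango6*, about 79.8 kb from the *Cdh1* start, at 8.38% in embryonic epithelium, 6.99% in embryonic fibers and 11.4% in newborn fibers. Counted with that neighbour, the order of the 2 tissues for the strongest site of the window turned at both stages, to fibers higher by 1.40 points at E14.5 and 3.19 points at P0.5. This order was kept under some other settings and not under all. At E14.5 fibers minus epithelium was -0.860 points with a q value under 0.001, with fibers still higher. In lists of equal length epithelium was higher by 0.447 points. At P0.5 the difference was -2.34 points in lists of equal length, again with fibers higher. With a q value under 0.001 epithelium was higher by 6.47 points.

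*Cdh2*, the N-cadherin gene on chr18:16588877-16809246 (minus strand), had the most peaks of the 8 genes in embryonic fibers. There were 132 in its gene body in embryonic fibers, 66 in embryonic epithelium, 19 in newborn epithelium and 8 in newborn fibers. The share of the gene body under peaks was 26.8% in embryonic fibers, 9.39% in embryonic epithelium, 2.51% in newborn epithelium and 1.34% in newborn fibers. Embryonic fibers thus stood apart from the other 3 lists. Of 144 regions called at E14.5 in the window, 87 were in fibers and not in epithelium (60.4%, interval 52.3 to 68.0%) and 8 in epithelium and not in fibers (5.56%, interval 2.84 to 10.6%), where all regions gave 40.1% and 19.7%. Of 138 regions called in fibers at either stage, 130 were called at E14.5 and not at P0.5 (94.2%, interval 89.0 to 97.0%), where all regions gave 62.5%.

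The *Cdh2* promoter held the highest-ranked peak of the gene in every list, at 4.15% in embryonic epithelium, 2.42% in embryonic fibers, 6.40% in newborn epithelium and 6.94% in newborn fibers. Its widest promoter peak, in embryonic fibers, spanned 3485 bp. Deep in the gene, 4 intronic regions were called in all 4 lists, of 139 in the gene body, a share no larger than that over all regions of the series away from promoters, of which 4.71% were called in all 4. Their summits lay at 99.4, 101, 136 and 139 kb from the start site. The one at 99.4 kb stood at 6.95% in embryonic epithelium and 3.49% in embryonic fibers, then at 24.9% in newborn epithelium and 48.9% in newborn fibers. The one at 139 kb stood at 7.35%, 5.34%, 19.6% and 21.4% in this order. Summits of each of these 4 regions lay within 66 bp of each other over the lists. A region at 37.0 kb, also intronic, was called in both epithelium lists, at 29.0% and 66.3%, and in neither fiber list.

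**Figure D2:**
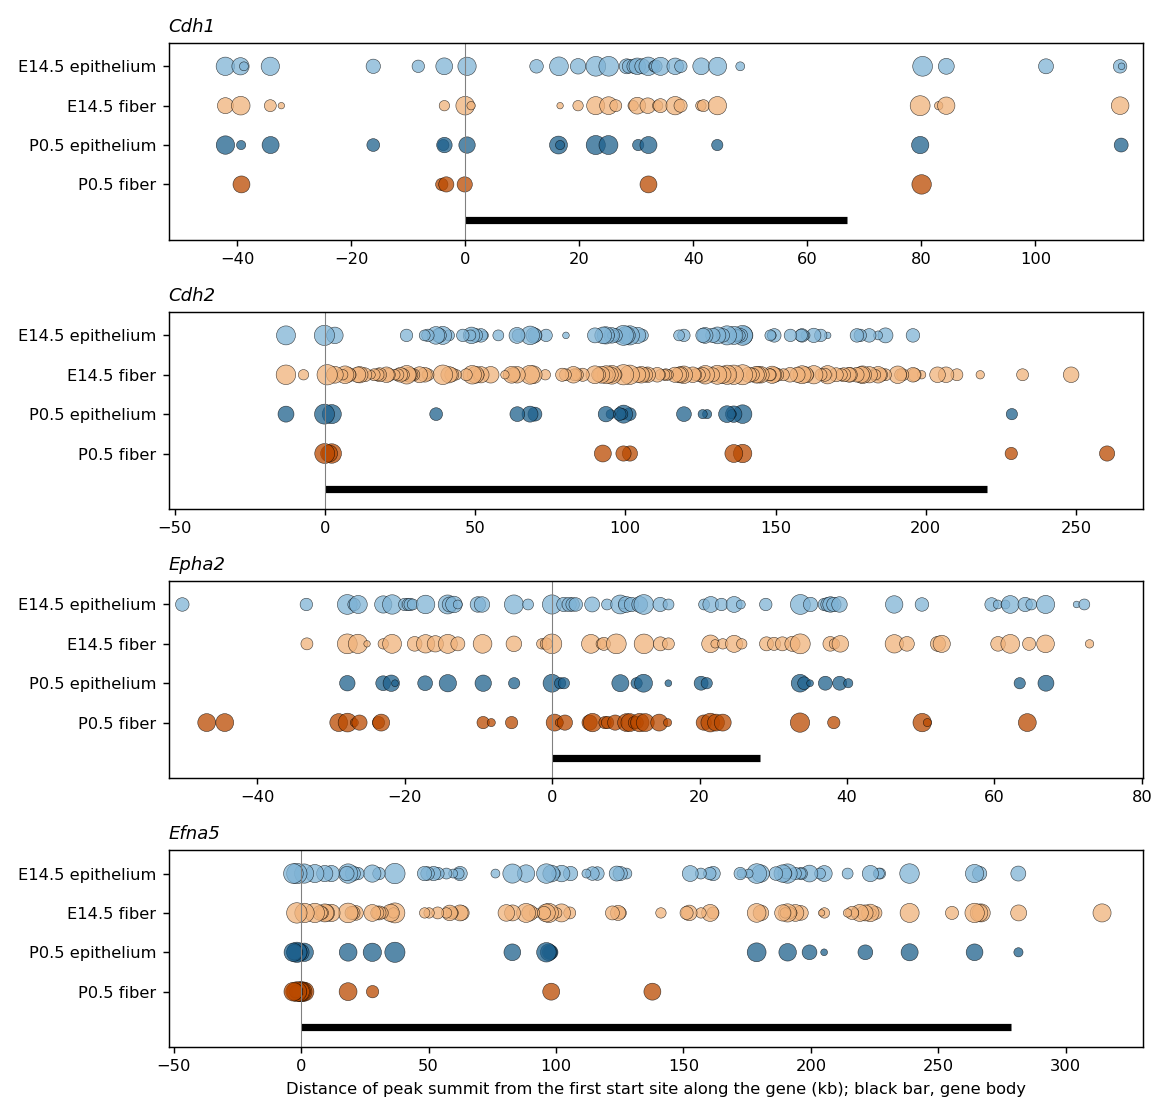
Position of every peak of 4 genes along the distance from the first start site of the gene (kb, horizontal axis, in the direction of transcription), with 1 row for each pooled list, a black bar for the gene body and larger points for peaks of higher place in their list. The Cdh2 gene body is dotted with peaks along its length in E14.5 fibers (132 peaks) and holds 8 peaks in P0.5 fibers, whereas that of Epha2 holds 13 and 20 in these lists.

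*Ctnnb1* and *Ctnnd1* encode the catenins that bind the cadherin tail. *Ctnnb1*, the β-catenin gene on chr9:120933400-120960507 (plus strand), had 1 gene body peak in embryonic epithelium, 5 in embryonic fibers, 2 in newborn epithelium and 2 in newborn fibers. Coverage was 4.76% in embryonic epithelium, 12.4% in embryonic fibers, 4.08% in newborn epithelium and 3.47% in newborn fibers. Its promoter peak was among the strongest of the 8 genes, at 2.41%, 1.36%, 7.95% and 3.82% of the 4 lists in the same order. Fibers thus had the higher place at each stage. The other 4 regions of the gene body were called in embryonic fibers alone, as were 29.3% of all regions of the series. Of the 31 regions of its window, 22 lay in the body of a neighbouring gene. Among these was a region 53.3 kb from the *Ctnnb1* start that was called in both epithelium lists, at 35.9% and 86.7%, and in neither fiber list. The promoter is shown just upstream of the start site, since the summit itself lay in the 5′ UTR, together with the epithelial region. Neither run held any of the consensus sequences searched.
Ctnnb1 promoter, chr9:120933199-120933399: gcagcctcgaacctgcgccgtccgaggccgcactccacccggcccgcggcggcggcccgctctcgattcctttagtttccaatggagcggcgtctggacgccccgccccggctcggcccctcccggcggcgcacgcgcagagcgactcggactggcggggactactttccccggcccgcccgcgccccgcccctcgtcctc
Ctnnb1 window, 53.3 kb, chr9:120986627-120986777: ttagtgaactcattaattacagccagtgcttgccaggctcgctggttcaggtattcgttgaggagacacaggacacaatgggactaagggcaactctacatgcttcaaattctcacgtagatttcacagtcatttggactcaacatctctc

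*Ctnnd1*, which encodes p120-catenin, lies on chr2:84600781-84658977 (minus strand). It was covered to 4.22% in embryonic epithelium, 9.57% in embryonic fibers, 3.08% in newborn epithelium and 0.993% in newborn fibers. At E14.5, 15 of 26 regions of its window were called in fibers and not in epithelium (57.7%, interval 38.9 to 74.5%), and 0 in epithelium and not in fibers, a count that allows a share of up to 12.9% by the same interval. All regions gave 40.1%, inside the interval of the fiber share, and 19.7%. The gene has several start sites, and the lists differed in which of them had a peak. A start site 8.2 kb inside the longest transcripts held the highest-ranked peak at 4.52% in embryonic epithelium and 3.83% in embryonic fibers, and a peak at 21.5% in newborn epithelium. No peak was called there in newborn fibers. At the outermost start site, which lies beside that of a neighbouring gene, a weak peak was called in both fiber lists, at 90.1% at E14.5 and 69.2% at P0.5, and in neither epithelium list. Another weak peak, at -1.47 kb from that start, was called in both E14.5 lists. An intronic region 23.9 kb from the outermost start was called in all 4 lists, at 6.52% in embryonic epithelium, 11.4% in embryonic fibers, 8.34% in newborn epithelium and 18.2% in newborn fibers.

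The inner promoter of *Ctnnd1* is shown as its strongest site, and the outer promoter and a coding exon because both were called in the 2 fiber lists and in neither epithelium list. The coding exon peak stood at 53.3% in embryonic fibers and 48.9% in newborn fibers. The third such region, 59.2 kb from the outermost start and past the end of the gene, is not shown, since no long enough run outside annotated untranslated sequence was found there. None of the runs held a consensus searched. Bases annotated as UTR were left out, so the inner run lies upstream of the summit and ends beside it.
Ctnnd1 inner promoter, chr2:84650761-84650961: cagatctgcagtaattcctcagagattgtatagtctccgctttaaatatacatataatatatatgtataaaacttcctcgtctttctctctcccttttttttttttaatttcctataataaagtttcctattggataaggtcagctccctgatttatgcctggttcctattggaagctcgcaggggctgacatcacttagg
Ctnnd1 outer promoter, chr2:84658978-84659071: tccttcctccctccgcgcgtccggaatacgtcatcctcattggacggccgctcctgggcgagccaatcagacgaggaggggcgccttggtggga
Ctnnd1 coding exon, chr2:84619931-84620081: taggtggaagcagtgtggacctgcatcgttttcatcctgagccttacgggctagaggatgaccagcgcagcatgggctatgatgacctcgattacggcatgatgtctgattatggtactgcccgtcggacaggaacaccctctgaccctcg

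The strongest peak of the *Ctnnd1* window was not its own. It lay at the shared promoter of *Med19* and *Tmx2*, at -19.3 kb from the outermost start site, with a place of 1.08% in embryonic epithelium, 0.394% in embryonic fibers, 2.01% in newborn epithelium and 5.69% in newborn fibers. The promoter of *Selenoh*, at -11.8 kb, was also among the highest in embryonic fibers, at 7.40%.

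The α-catenin genes, whose products carry the link to actin, had the lowest coverage of the 8 in every list but that of newborn fibers, where *Cdh1* lay between them. *Ctnna1* (αE-catenin, chr18:35118912-35254775, plus strand) was covered to 1.16% in embryonic epithelium, 3.20% in embryonic fibers, 0.787% in newborn epithelium and 0.641% in newborn fibers. *Ctnna2* (αN-catenin, best known from neurons, chr6:76881637-77979667, minus strand) is the longest of the 8 genes at 1098 kb, and its coverage was 0.221%, 0.868%, 0.0901% and 0.194% in this order. In all 4 lists both lay below the median of all genes. Their promoters held the highest-ranked peak of each gene in every list. The *Ctnna1* promoter peak stood at 9.01% in embryonic epithelium, 5.51% in embryonic fibers, 12.3% in newborn epithelium and 9.32% in newborn fibers. The *Ctnna2* promoter peak stood at 8.62%, 2.49%, 7.24% and 1.87%, so fibers had the higher place for both genes at both stages. Over all protein-coding genes the median place of the highest-ranked peak was 7.79%, 6.25%, 12.8% and 11.4% in this order. Both genes thus stood at a weaker place than that median in embryonic epithelium, and at a stronger one in the other lists. The newborn order of *Ctnna1* turned among peaks with a q value under 0.001.

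Within *Ctnna2*, an intronic region 92.7 kb from the start stood at 13.0% in embryonic epithelium and 4.59% in embryonic fibers, then at 58.5% in newborn epithelium, and was not called in newborn fibers. The genes *Lrrtm2* and *Lrrtm1*, which lie inside introns of *Ctnna1* and *Ctnna2*, had promoter peaks among the 3 highest of these windows. That of *Lrrtm2* stood at 10.4% in embryonic fibers and 33.9% in newborn epithelium, and that of *Lrrtm1* at 18.2% in newborn fibers.

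The highest-ranked peak of *Ctnna2* stood higher at P0.5 than at E14.5 in both tissues, and by places in the full lists it was the 1 member of which this was so. Among all protein-coding genes with a peak in both lists, the place was higher at P0.5 for 17.4% in epithelium and 15.5% in fibers. In lists of equal length the strongest window peak of *Ctnna1* also stood higher at P0.5 in both tissues, as did that of *Cdh2* in epithelium and those of *Cdh1* and *Epha2* in fibers. The order of *Ctnna2* was kept there, and in fibers it turned when peaks with a q value of 0.001 or more were left out. A promoter run is shown for that reason. Capitals mark a match to the E-box letters CAGGTG, bound by Snail and Zeb repressors (CACCTG on the strand shown). Bases annotated as UTR were left out, so the run lies upstream of the start site and does not hold the summit. The summit in newborn fibers was at chr6:77979680, and the E-box match lies outside the 200 bp around it.
Ctnna2 promoter, chr6:77979816-77979980: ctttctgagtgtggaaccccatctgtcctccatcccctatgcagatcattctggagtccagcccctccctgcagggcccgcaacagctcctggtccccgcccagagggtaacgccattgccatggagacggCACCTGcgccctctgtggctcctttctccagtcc

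**Figure D3:**
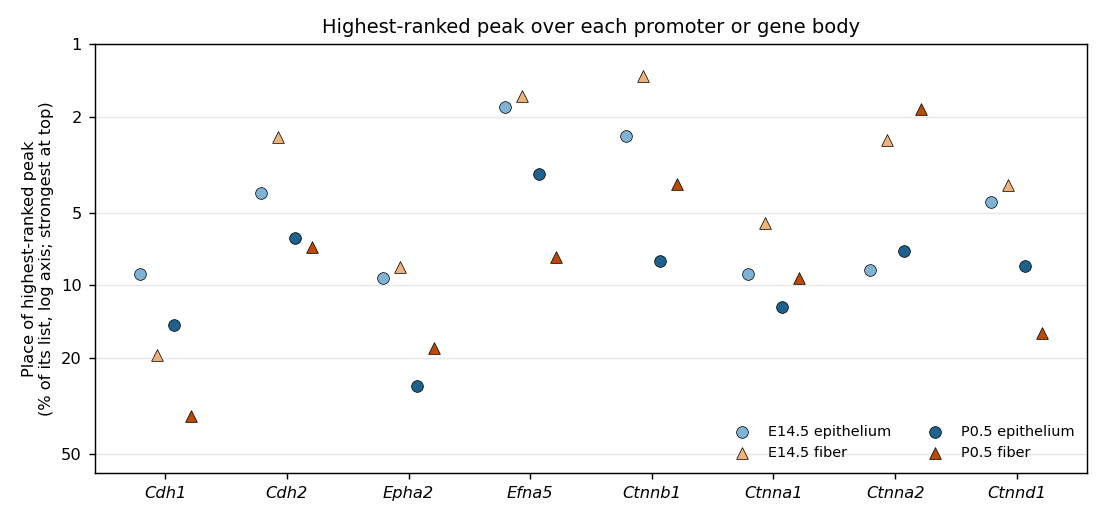
Place of the strongest peak of each gene, promoter or gene body (percent of its own list, log axis, strongest at the top) in the 4 pooled lists, with circles for epithelium and triangles for fibers. At E14.5 the fiber point lies above the epithelium point for every gene but Cdh1 (19.5% against 9.01%), and Ctnna2 reaches 1.87% in P0.5 fibers.

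*Epha2*, the EphA2 receptor gene on chr4:141301221-141329384 (plus strand), was the most widely covered of the 8 genes in every list. Peaks covered 29.9% of it in embryonic epithelium, 53.6% in embryonic fibers, 10.2% in newborn epithelium and 19.4% in newborn fibers, so fibers exceeded epithelium at both stages. The newborn excess of 9.15 points was 1.66 points among peaks with a q value under 0.001. At E14.5 the number of peaks ran the other way, with 20 in the gene body in epithelium and 13 in fibers, while fiber peaks were wider. The median width in the window was 286 bp in epithelium and 478 bp in fibers, and the widest fiber peak spanned 3848 bp. At P0.5 there were 9 gene body peaks in epithelium and 20 in fibers. *Epha2* had more window peaks in newborn fibers (36) than in newborn epithelium (25). In the other 7 windows the number in newborn fibers exceeded that in newborn epithelium for *Ctnna1* alone, with 6 against 5.

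The strongest site of *Epha2* differed from list to list. The highest-ranked peak over the gene lay 12.4 kb into it in embryonic epithelium, at 9.30%, and 8.72 kb into it in embryonic fibers, at 8.43%, both in introns. In newborn epithelium the promoter and the 12.4 kb region tied at 26.3%, and in newborn fibers a coding exon 21.5 kb from the start stood highest at 18.2%. The promoter peak stood at 13.8%, 9.15%, 26.3% and 34.7% of the 4 lists, from embryonic epithelium to newborn fibers. Of the 66 regions of the window, 10 were called in all 4 lists (15.2%, interval 8.44 to 25.7%), against 10.9% of all regions. In 3 lists the strongest peak of the whole window lay outside the gene, 33.7 kb from the start site, at 7.35% in embryonic epithelium, 7.21% in embryonic fibers and 12.6% in newborn fibers. Another outer region, at -27.8 kb, stood at 8.51%, 7.90% and 18.2% in these lists. The 8.72 kb intron is shown as the site of the highest place over the gene in any list. Capitals mark a Tead match and a match to the Gata letters AGATAA. Also shown is the 1 region called in both fiber lists and in neither epithelium list, with its summit in a coding exon at 22.2 kb. Its label gives the place of the summit, and the run was not cut at the ends of the exon. The exon peak stood at 90.1% in embryonic fibers and 34.7% in newborn fibers.
Epha2 intron, 8.72 kb, chr4:141309836-141310036: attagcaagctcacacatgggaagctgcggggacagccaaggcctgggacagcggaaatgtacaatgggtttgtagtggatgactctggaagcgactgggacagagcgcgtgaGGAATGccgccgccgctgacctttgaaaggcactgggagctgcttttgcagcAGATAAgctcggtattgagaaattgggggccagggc
Epha2 coding exon, 22.2 kb, chr4:141323374-141323524: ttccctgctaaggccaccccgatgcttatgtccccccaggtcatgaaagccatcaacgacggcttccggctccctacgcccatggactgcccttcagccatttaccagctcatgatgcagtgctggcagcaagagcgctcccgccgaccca

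*Efna5* encodes ephrin-A5, a ligand of Eph receptors, and lies on chr17:62602957-62881317 (minus strand). Its gene body held 60 peaks in embryonic epithelium, 72 in embryonic fibers, 16 in newborn epithelium and 7 in newborn fibers, with coverage of 6.82%, 9.51%, 1.59% and 0.681%. Its promoter was among the strongest sites of the 8 genes. The peak stood at 1.83% in embryonic epithelium, 1.64% in embryonic fibers, 3.44% in newborn epithelium and 7.65% in newborn fibers. In the first 3 lists the summit was at the same base, at -1.70 kb from the start site. In newborn fibers a peak at -1.68 kb tied with a peak 0.329 kb inside the gene. An intronic region at 36.8 kb was nearly as strong in epithelium, at 2.18% at E14.5 and 3.97% at P0.5. It stood at 5.79% in embryonic fibers and was not called in newborn fibers. Of 73 regions called in fibers at either stage, 67 were called at E14.5 and not at P0.5 (91.8%, interval 83.2 to 96.2%), where all regions gave 62.5%. The promoter summit is shown as the strongest site, and an intronic region at 199 kb because it was called in both epithelium lists, at 35.9% and 52.3%, and in neither fiber list. Neither held a consensus searched.
Efna5 promoter, -1.70 kb, chr17:62882919-62883119: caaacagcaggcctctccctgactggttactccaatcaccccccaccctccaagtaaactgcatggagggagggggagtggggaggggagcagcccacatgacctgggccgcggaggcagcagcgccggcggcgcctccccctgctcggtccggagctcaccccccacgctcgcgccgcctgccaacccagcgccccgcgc
Efna5 intron, 199 kb, chr17:62681820-62681970: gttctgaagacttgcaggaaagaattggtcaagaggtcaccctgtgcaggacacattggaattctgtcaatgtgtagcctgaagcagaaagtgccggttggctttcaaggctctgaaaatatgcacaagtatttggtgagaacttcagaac

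The order of the 8 genes by gene body coverage can be read within each list, though neighbours in it have no spread against which to compare them. In embryonic fibers it ran from *Epha2* (53.6%) and *Cdh2* (26.8%) through *Ctnnb1* (12.4%), *Ctnnd1* (9.57%) and *Efna5* (9.51%) to *Cdh1* (5.99%), *Ctnna1* (3.20%) and *Ctnna2* (0.868%). In embryonic epithelium *Epha2* (29.9%) was again the first, and *Cdh2* (9.39%) and *Cdh1* (9.28%) were almost level. In newborn fibers, *Cdh1* (0.277%) was second from the last, ahead of *Ctnna2* (0.194%). By the place of the highest-ranked peak over promoter or gene body, the medians of the 8 genes were 6.57% in embryonic epithelium, 3.16% in embryonic fibers, 8.14% in newborn epithelium and 8.48% in newborn fibers. Over all protein-coding genes with such a peak they were 7.79%, 6.25%, 12.8% and 11.4%. The place was higher in fibers than in epithelium for 7 of the 8 genes at E14.5 (71.5% of all genes) and for 4 of the 8 at P0.5 (57.4%). In lists of equal length the E14.5 order of the strongest peak of the window turned for *Cdh1*, *Epha2* and *Efna5*.

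Taking the 467 regions as a set, 197 were called in embryonic fibers alone (42.2%, interval 37.8 to 46.7%), where all regions of the series gave 29.3%. Another 89 were called in both E14.5 lists and at neither P0.5 list (19.1%, interval 15.8 to 22.9%), against 11.4%. All 4 lists shared 33 regions (7.07%, interval 5.08 to 9.76%), against 10.9%. Few of the regions were open at P0.5 without being open at E14.5. In fibers 19 of 401 regions called at either stage were called at P0.5 alone (4.74%, interval 3.05 to 7.28%), where all regions gave 17.6%. In epithelium the count was 14 of 249 (5.62%, interval 3.38 to 9.22%), against 11.2%, and 154 were called at E14.5 alone (61.8%, interval 55.7 to 67.7%), against 49.7%. In lists of equal length the regions called at P0.5 alone minus those at E14.5 alone went from -140 to -37 in epithelium and from -314 to -89 in fibers. Regions in 1 window are not independent of each other, and 147 of the 467 belong to *Cdh2* alone.

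At E14.5 more regions were called in fibers alone than in epithelium alone, and at P0.5 fewer. At E14.5, 205 of 440 regions were called in fibers and not in epithelium (46.6%), and 58 in epithelium and not in fibers (13.2%, interval 10.3 to 16.7%). All regions of the series gave 40.1% and 19.7%, with the same direction. The excess of 147 regions in fibers was 22 in lists of equal length. At P0.5, 35 of 130 were called in fibers alone (26.9%) and 62 in epithelium alone (47.7%, interval 39.3 to 56.2%), where all regions gave 39.6% and 35.2%. Of the 16 regions at the genes' own promoters, 8 were called in all 4 lists (interval 28.0 to 72.0%), and of all promoter regions of the series 42.3% were. At promoters of other genes 5 of 24 were (20.8%, interval 9.24 to 40.5%). Outside any promoter, 20 of 427 were (4.68%, interval 3.05 to 7.12%), against 4.71% in the series. There were 9 regions called at both stages in 1 tissue and at neither stage in the other. The 4 epithelial ones (0.857%, interval 0.334 to 2.18%, against 2.28% of all regions) lay in the windows of *Cdh1*, *Cdh2*, *Efna5* and *Ctnnb1*. The 5 of fibers (1.07%, interval 0.458 to 2.48%, against 2.43%) lay in those of *Epha2*, *Ctnna1* and, with 3, *Ctnnd1*.

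**Figure D4:**
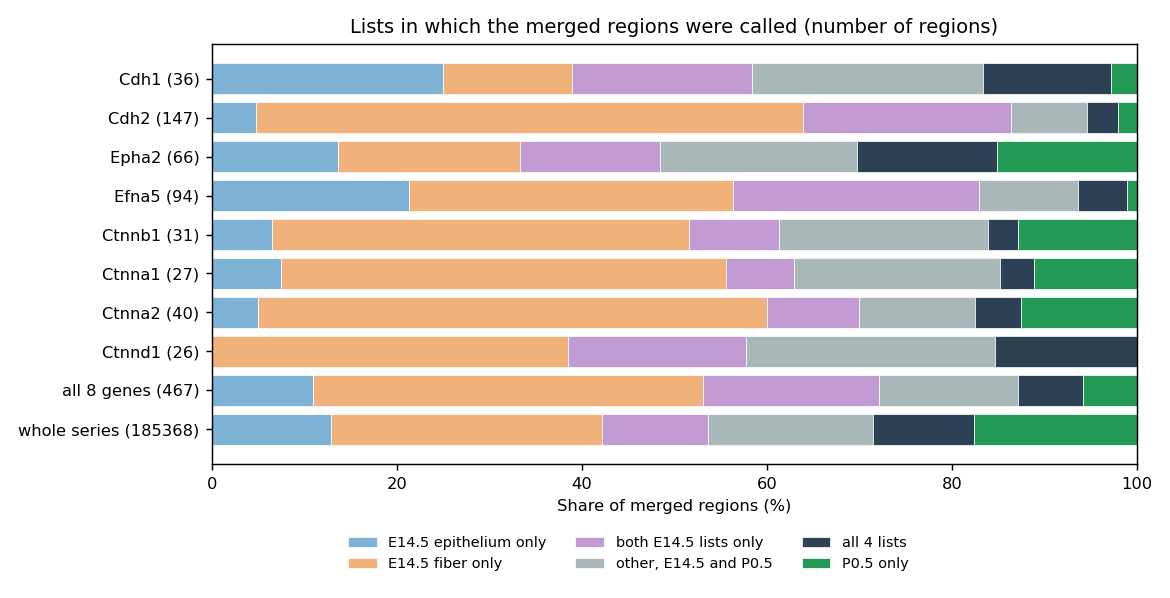
Share of the merged regions of each window (%, horizontal axis) by the pooled lists that called them, with the number of regions in brackets and the sums over the 8 genes and the whole series in the lowest rows. E14.5 fibers alone account for 59.2% of the regions of Cdh2 and 13.9% of those of Cdh1, and for 42.2% over the 8 genes against 29.3% in the series.

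Most genes of the wider family also had promoter peaks throughout. Of 47 further genes for cadherins, catenins, nectins and actin linkers, Eph receptors, ephrins and cadherin repressors, 44 had a promoter peak in all 4 lists, against 60.6% of all protein-coding genes. The exceptions were *Nectin4*, a nectin gene called in embryonic fibers and newborn epithelium, the receptor gene *Epha8*, missing in embryonic epithelium, and the ephrin gene *Efnb3*, missing in newborn fibers. All 6 other cadherin genes, all 6 other catenin genes and all 5 repressor genes (*Snai1*, *Snai2*, *Zeb1*, *Zeb2* and *Twist1*) were called in every list. In 3 of the 4 lists the strongest sites of the family were those of *Ephb3*, *Nectin2* and *Vcl*. In newborn epithelium the receptor gene *Epha7* stood highest, at 0.181%. *Ephb3*, a receptor of B-type ephrins, stood at 0.126% in embryonic epithelium, 0.146% in embryonic fibers, 0.589% in newborn epithelium and 0.157% in newborn fibers. *Nectin2* stood at 0.507%, 0.101%, 4.22% and 0.119%. *Vcl*, the vinculin gene, stood at 0.246%, 0.221%, 0.739% and 0.498%. None of the 8 genes came as high as *Ephb3* or *Vcl* in any list. The median gene body coverage of the 47 genes was 4.95% in embryonic epithelium, 6.80% in embryonic fibers, 2.33% in newborn epithelium and 2.24% in newborn fibers.

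For each member, the family gene with the most similar places over the 4 lists was found by the mean absolute difference in percent of the list. *Ctnna1* was closest to *Cdh4*, with a difference of 0.647 points, *Ctnnd1* to *Snai1* (0.964) and *Efna5* to *Zyx* (1.16). *Cdh2* and *Ctnna2* were both closest to *Ctnna3*, at 1.12 and 2.79 points, *Ctnnb1* to *Arvcf* (1.18) and *Epha2* to *Zeb1* (1.46). *Cdh1* had no close match, its nearest being *Efna4* at 5.47 points. With 4 lists and 47 candidates these are descriptions of rank.

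Consensus letters of 8 transcription factor families were counted on either strand in 200 bp around the summits of the 467 regions. The Sox letters (ACAAAG) were found in 101 of them (21.6%, interval 18.1 to 25.6%), where all regions of the series gave 15.9%. By gene the share ran from 12.1% in the *Epha2* window and 13.9% in that of *Cdh1* to 26.6% in that of *Efna5*. In the 33 regions shared by all 4 lists it was 9.09%, near the 9.98% of all regions of that kind. Within 100 bp the shares were 9.85% (interval 7.47 to 12.9%) and 8.42%, so the excess was not detectable there. The Tead letters were found in 16.1% of the regions (13.7% of all), the Maf letters in 24.4% (23.1%), the AP-1 letters TGANTCA in 8.14% (6.61%) and the Gata letters in 7.71% (6.17%). The Tcf/Lef letters CTTTGAT, read by the partners of β-catenin, were in 2.78% (2.37%), the E-box letters in 14.1% (15.6%) and a CTCF consensus in 1.07% (2.13%). For each of these 7 other families the interval held the share of all regions. In the annotated promoters from RefSeq (GRCm38), which gave entries for *Epha2*, *Efna5*, *Ctnnb1*, *Ctnna2* and *Ctnnd1*, a Tead match was found for *Epha2* and an E-box match for *Ctnna2*. Such letters were in 14.7% and 20.2% of 32851 promoters.

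The lists were checked against markers of the dissected tissues. The lens epithelium genes *Foxe3*, *Pax6* and *Pitx3* had promoter peaks in all 4 lists, and so did 6 of 7 fiber genes, *Dnase2b* being called at its promoter in none. Since 60.6% of all protein-coding genes had one in all 4 lists, promoter peaks say little about the tissue. Median gene body coverage of the fiber genes was 74.7% in embryonic fibers and 5.83% in embryonic epithelium, and 7.73% and 2.28% at P0.5. That of the 3 epithelium genes was also larger in fibers, with 72.9% against 42.3% in epithelium at E14.5 and 22.9% against 17.2% at P0.5. Gene body coverage thus followed the labelled tissue for the fiber genes and not for these 3. Promoter peaks of vascular genes were called for 3, 4, 3 and 2 of 4 genes from embryonic epithelium to newborn fibers. For mesenchyme they were called for 3, 3, 3 and 2 of 3, for retina for 3, 3, 2 and 0 of 3, and for blood and macrophages for 1, 1, 1 and 0 of 3, with *Hba-a1* and *Ptprc* in none. Of all protein-coding genes 70.3%, 71.2%, 67.0% and 64.6% had one in these lists, so that these counts of 3 or 4 genes do not show whether such cells were present. The part of such cells in the values of the 8 genes was not tested, and fewer open cells cannot be told apart from less openness per cell.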

How the data were processed

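ATAC-seq reads of 8 libraries, 2 for each stage and tissue, had been trimmed by the authors with Trim Galore 0.4.1, mapped to mm10 (GRCm38) with Bowtie2 2.3.3.1 and freed of mitochondrial and duplicated reads with SAMtools 1.2 and Picard 2.1.1. Peaks were called with MACS2 2.1 at a q value of 0.05 on the pooled libraries of a group. For each peak, the authors deposited the fold enrichment (a ratio) of the summit against local background. It was used only as a rank among the peaks of 1 list, since depth and the share of reads in peaks may differ between lists. Tied peaks share the better rank, and ties are frequent among weak peaks. The deposited −log10 p value ordered peaks where lists were cut to equal length, and the deposited −log10 q value set the stricter threshold. The deposited score was not used. The lists hold no counts, so the number of reads behind a peak is unknown. The paper reports the sequencing depth of its libraries, which was not used here.

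The tables were handled in pandas 2.3.3 (numpy 2.4.6, python 3.11.15), and peaks were merged as bedtools 2.31.1 does at 10 bp. Bases were taken from the indexed genome by samtools 1.23.1 and pysam 0.24.0, intervals came from scipy 1.17.1, and figures from matplotlib 3.10.9. Genes were 45756 curated RefSeq transcripts of 26180 genes. Merging, coverage, ranks and promoter calls were tested on simulated data.

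The 8 genes, the family list, the markers and the consensus letters were chosen with earlier results of these data known. Genes named were the 8 members, family genes called in some lists but not all, the 3 others of highest place in 3 of the 4 lists (*Epha7*, highest in P0.5 epithelium, was chosen after its values were seen), the family gene with the places nearest to those of each member, and genes whose promoter held 1 of the 3 highest-ranked peaks of a window. Repressor and marker genes were named as their lists. No sequence of *Cdh2* or *Ctnna1* is reported here. RNA levels and read signal were not analysed here.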

Additional observations from a re-analysis of the deposited data

Results flagged for a closer look

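The contrast between fibers and epithelium in gene body coverage had opposite signs at the 2 stages for 5 of the 8 genes, and for 38.3% of 19556 protein-coding genes. For *Cdh2*, fibers minus epithelium was 17.4 percentage points at E14.5 and -1.17 points at P0.5. For *Ctnnb1* it was 7.69 and -0.612 points, and for *Ctnnd1* 5.35 and -2.09 points. For *Efna5* the values were 2.69 and -0.905 points, and for *Ctnna1* 2.03 and -0.146 points. Each value comes from 1 pooled list per group, so the difference between stages was not tested. The newborn fiber list also held the weakest peaks, and its part in the change of sign was not tested. The negative value of *Ctnnb1* at P0.5 rests on the first 2 kb of the gene, without which it was 0. In lists of equal length the E14.5 values were smaller, at 11.1 points for *Cdh2*, 3.50 for *Ctnnb1*, 2.43 for *Ctnnd1* and 1.21 for *Efna5*, and that of *Ctnna1* was also over 1.5 times smaller. *Cdh1*, *Epha2* and *Ctnna2* kept the sign.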

How the results depend on the processing

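No paired analysis was possible because the replicate libraries of each group had been pooled before peaks were called, and no replicate could be left out. Of 224 directions of single genes under the alternatives, 14 reversed, all of them in the place of the highest-ranked peak of a window. None of the 96 in gene body coverage did, though those of *Ctnnb1* between tissues at P0.5 and between stages in epithelium were 0 without the first 2 kb. In lists cut to the 58592 strongest peaks, the place in embryonic fibers minus embryonic epithelium turned for *Cdh1* (0.447 points), *Epha2* (2.67) and *Efna5* (0.346), P0.5 minus E14.5 in epithelium for *Cdh2* (-0.688) and *Ctnna1* (-3.11), and in fibers for *Cdh1* (-2.53), *Epha2* (-1.67) and *Ctnna1* (-1.63). With a q value under 0.001 it turned for *Epha2* at E14.5 (0.582), for *Cdh1* (6.47) and *Ctnna1* (4.90) between tissues at P0.5, and for *Ctnna2* between stages in fibers (0.726). With only promoter and gene body peaks it turned for *Cdh1* between tissues at E14.5 (10.5) and P0.5 (20.2).

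Of 130 summary values, 25 moved and 3 reversed. Moved means by over 1.5 times for counts and coverage, outside the 95% interval for median places, and by more than the distance from the middle to the end of the interval for motif shares. Motif differences within it still shrank, as for the E-box (-0.120 points at a q value under 0.001), Gata (0.447, 100 bp) and Tead (0.787, 100 bp). In lists of equal length the windows held 142 peaks in embryonic epithelium and 155 in embryonic fibers, and 239 merged regions. Regions called in embryonic fibers alone then exceeded those in embryonic epithelium alone by 22, and the excess of P0.5 over E14.5 was -37 in epithelium and -89 in fibers. With a q value under 0.001, newborn fibers held 52 peaks and the embryonic fiber excess was 97. In the gene bodies alone, newborn epithelium held 70 peaks and newborn fibers 51. The median place of the window was 6.54%, 3.05%, 8.76% and 14.9% at a q value under 0.001 (from embryonic epithelium to newborn fibers), 9.82%, 5.19% and 7.85% at equal length (without newborn epithelium, whose list is the shortest), and 6.57%, 3.16%, 8.14% and 8.48% over promoters and gene bodies. Without the first 2 kb of each gene, median coverage was 1.71% in newborn epithelium and 0.260% in newborn fibers. Member share minus the share of all regions became -1.63 (100 bp) and -0.964 points (q under 0.001) for Maf, 1.43 for Sox (100 bp), and -0.0348 (100 bp) and 2.05 points (whole regions) for Tcf/Lef. The cause was not tested.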
